A study of Mus musculus with 6 samples.

Results

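The genes described here encode the proteins that act at and just behind the T cell antigen receptor (TCR): its CD3 chains and CD8 coreceptor, the first kinases and adaptors, the enzymes that these adaptors recruit, the phosphatases and ubiquitin ligases that restrain them, and the NFAT and NF-kB proteins next in line. They were taken from a list of 45 named genes, and a gene was counted as measured where at least 1 probe set of the array is annotated to that gene alone. By this rule 44 of the 45 were measured, with 106 of the 45037 probe sets tested and among 18193 genes in all, and *Lck* was not analysed here.

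The study asked what changes in activated CD8 T cells when the transcription factor KLF2, which is normally lost after TCR triggering, is kept on. GFP-KLF2 cells carried a retroviral construct of KLF2 fused to green fluorescent protein (GFP), and evGFP cells, their control, carried the empty GFP vector, with 3 biological replicates of each on Affymetrix mouse expression arrays. All cells were CD8 cytotoxic T lymphocytes (CTL) from spleens of C57BL/6 mice aged 8 to 12 weeks with the P14 transgenic TCR, which recognises a lymphocytic choriomeningitis virus peptide. The cells saw that peptide for 48 hours, with transduction after the first 18, and then IL-2 for 48 hours before GFP sorting on day 4 according to the labels, where a legend of the study gives a longer time in IL-2, so that both groups shared the transgenic receptor, the stimulation and the viral transduction. The labels call the replicates biological but do not say whether they came from separate mice. The p-values measure the spread between these samples, which may not be the spread between mice.

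When peptide and MHC bind the TCR, the Src kinases Lck and Fyn phosphorylate the CD3 and zeta chains, ZAP-70 docks there and phosphorylates the adaptors LAT and SLP-76, and phospholipase C gamma 1 bound to LAT makes the messengers diacylglycerol and inositol trisphosphate. Diacylglycerol opens the Ras and PKC theta branches, and inositol trisphosphate releases calcium, which brings NFAT into the nucleus. Phosphatases, Csk, Cbl ligases and diacylglycerol kinases act as brakes on these steps.

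The 6 arrays correlated at 0.993 to 0.996 within a group and at 0.982 to 0.990 between groups (Pearson's r over all probe sets). Their median log2 intensity was 5.64 to 5.67, with a lower quartile of 4.18 to 4.25, and precision is limited by there being 3 arrays per group. The probe set of *Klf2* gave 9.83, 9.67 and 8.74 in GFP-KLF2 cells, against 10.99, 10.37 and 8.80 in evGFP cells (log2 intensity). It reads a stretch of the transcript that the construct lacks per the study's text, so it cannot check the labels. Among 9 measured markers of alpha-beta T cells, none passed limma's adjusted test in either direction (3 higher and 1 lower at an unadjusted p under 0.05) and all averaged above a log2 intensity of 8 over the 6 arrays, whereas *Cd4* averaged 6.74 in GFP-KLF2 and 6.63 in evGFP cells. With the replicate number as a block, which pairs the arrays, *Cd247* rose and *Cd5* fell among these 9. Markers of mast cells (6), platelets (6), NK cells (3) and gamma-delta T cells (1) gave no call, with 1 mast cell marker under an unadjusted p of 0.05, and of 3 CD4 T cell markers *Zbtb7b* rose, by 0.45 on the log2 scale. In bulk samples such as these, fewer cells of a type and less RNA per cell cannot be told apart.

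With KLF2 kept on, most members did not pass the test. Those that rose included kinases and brakes of TCR signalling. Those that fell were *Sh2d1a*, which encodes the adaptor SAP, *Plcg1*, which encodes phospholipase C gamma 1, and *Pag1*, the adaptor of the brake Csk. Of 44 members, 10 rose (*Txk*, *Ubash3b*, *Syk*, *Dgka*, *Ptpn22*, *Prkcq*, *Sla2*, *Lat*, *Cd8b1* and *Ptprc*), 3 fell (*Sh2d1a*, *Plcg1* and *Pag1*) and 31 did not pass the test, which was limma's moderated test on log2 intensity, 2-sided, with Benjamini-Hochberg adjustment over all 45037 probe sets and a threshold of 0.046. Over all genes 6.22% rose and 8.35% fell. The members other than *Syk* are bright genes, and among the 6956 genes with a mean log2 intensity of at least 8 the shares were 11.1% rising and 16.3% falling. The median log2 fold change of the members was 0.01, beside -0.01 over all genes. The counts by role below cover few genes each and are to be read beside the shares given here.

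A change of at least 2-fold was found for 4 members. *Txk*, *Ubash3b* and *Syk* rose by that much, where 2.23% of all genes did, and *Sh2d1a* fell by that much, where 0.715% of all genes did. The 3 arrays of each group did not overlap for 21 members: 13 were higher in GFP-KLF2 cells (14.3% of all genes) and 8 were lower (20.6% of all genes). Of the 6956 genes with a mean log2 intensity of at least 8, 1435 were higher and 2574 lower in this way. With the replicate block 13 members rose (8.58% of all genes) and 6 fell (12.1% of all genes), and those added were *Cd247*, *Grap2*, *Cblb*, *Sla*, *Ubash3a* and *Cd6*. Of the 6956 bright genes 1021 rose and 1499 fell with the block.

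**Figure D1:**
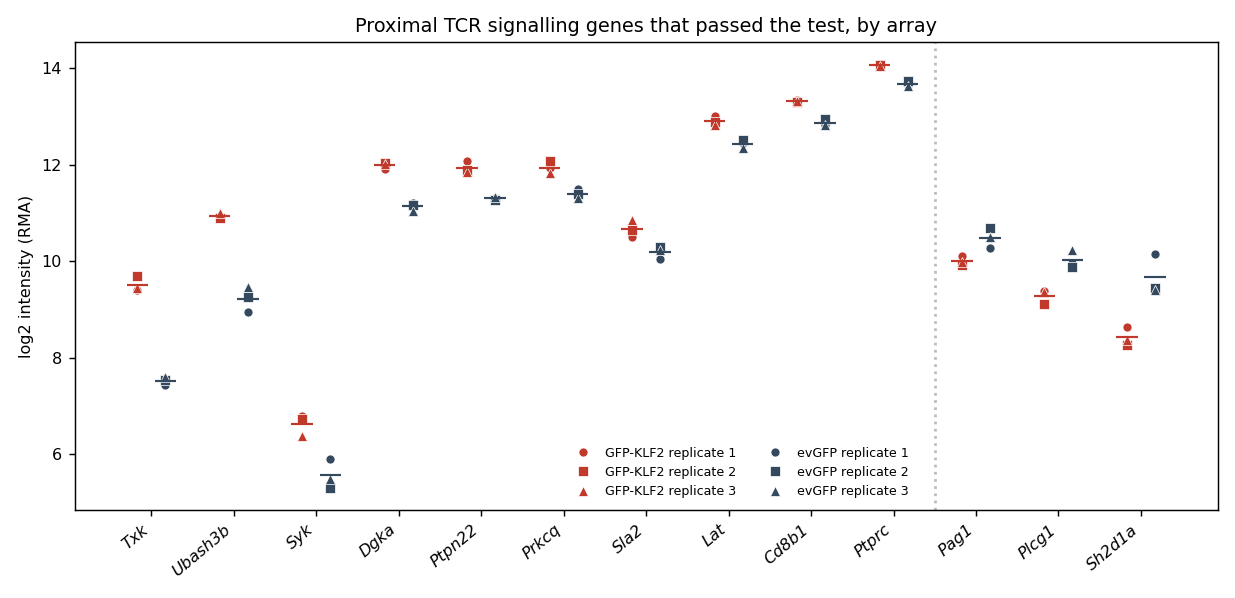
Log2 RMA intensity (vertical axis) of the 13 members that passed the test, with GFP-KLF2 arrays in red on the left of each gene and evGFP arrays in dark blue on its right, marks giving the replicate and short lines the group means (n = 3). The groups did not overlap for any of them, and the widest gap is that of *Txk*, at 9.41 to 9.70 in GFP-KLF2 and 7.44 to 7.59 in evGFP cells.

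Among the receptor and its coreceptors, 1 of 8 genes rose and none fell (2 higher and 1 lower at an unadjusted p under 0.05). *Cd8b1*, the beta chain of the CD8 coreceptor that binds MHC class I, had log2 intensities of 13.34, 13.30 and 13.31 in GFP-KLF2 cells, against 12.82, 12.95 and 12.82 in evGFP cells. Every GFP-KLF2 array was above every evGFP array, and the log2 fold change was 0.45 (SE 0.08, limma adjusted p = 0.0107). The alpha chain *Cd8a* averaged 12.00 ± 0.10 in GFP-KLF2 and 12.14 ± 0.09 in evGFP cells (SD, n = 3 each), with overlapping groups (log2 fold change -0.14, adjusted p = 0.387), and none of its 5 probe sets passed.

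The CD3 chains, which carry the signal of the TCR into the cell, did not pass. *Cd3d* changed by 0.02 (95% interval -0.15 to 0.20), *Cd3e* by -0.08 (-0.27 to 0.12) and *Cd3g* by -0.22 (-0.48 to 0.04) on the log2 scale. *Cd247*, which encodes the zeta chain, lay just outside the threshold. It had 11.82, 11.81 and 11.60 in GFP-KLF2 cells, against 11.36, 11.48 and 11.23 in evGFP cells, with no overlap and a log2 fold change of 0.39 (SE 0.10, adjusted p = 0.0481, and 0.0189 with the replicate block). Without GFP-KLF2 replicate 3 it passed (adjusted p = 0.0414). It also passed at a threshold of 0.05, after quantile normalization or cyclic loess, with a pseudocount and with array weights. The same held with probe sets of mean log2 intensity under 6 left out and with an intensity trend and robust prior.

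The adhesion receptors of the group did not pass. *Cd2*, which binds CD48, averaged 11.73 ± 0.37 in GFP-KLF2 and 11.86 ± 0.17 in evGFP cells (log2 fold change -0.14, adjusted p = 0.732). *Cd6*, a scavenger receptor family protein that binds ALCAM, averaged 8.15 ± 0.11 in GFP-KLF2 and 8.56 ± 0.33 in evGFP cells. Its log2 fold change of -0.41 did not pass (adjusted p = 0.164), but did with the replicate block (adjusted p = 0.0403) and without evGFP replicate 3 (adjusted p = 0.0346).

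Of 6 measured kinases, 2 rose, both at least 2-fold, and none fell (3 higher and 1 lower at an unadjusted p under 0.05). *Txk*, a *Tec* family kinase of T cells also known as Rlk, had the highest fold change of the 44 members. It gave 9.41, 9.70 and 9.43 in GFP-KLF2 cells, against 7.44, 7.53 and 7.59 in evGFP cells (log2 intensity). This gap was wider than the range within either group, and the log2 fold change was 1.99 (SE 0.10, adjusted p = 0.000179), or 3.98-fold. Its relative *Tec*, another kinase of that family, averaged 9.05 ± 0.06 in GFP-KLF2 and 9.08 ± 0.07 in evGFP cells (log2 fold change -0.03, adjusted p = 0.898).

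*Syk*, the relative of ZAP-70 that B cells and immature thymocytes rely on, was the dimmest member. It had 6.78, 6.73 and 6.36 in GFP-KLF2 cells, against 5.90, 5.29 and 5.49 in evGFP cells, near the arrays' median signal. The log2 fold change was 1.07 (SE 0.18, adjusted p = 0.0103), and a second probe set rose by 0.96 (adjusted p = 0.00516). The other 2 probe sets of *Syk*, with mean log2 intensities of 4.65 and 3.62, changed by -0.03 and 0.00. *Zap70* itself, the kinase that mature T cells use at this step, stayed at 11.27 ± 0.10 in GFP-KLF2 and 11.30 ± 0.02 in evGFP cells (adjusted p = 0.882).

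Since B cells and myeloid cells express *Syk*, their markers are given beside it. None of 9 measured B cell markers passed limma's adjusted test, while 4 were higher in GFP-KLF2 cells at an unadjusted p under 0.05. All had a mean log2 intensity under 8 (6 of them under 6, with *Cd79a*, *Ms4a1* and *Blnk* among these), and their summed linear intensity was 469 to 608 in GFP-KLF2 and 438 to 491 in evGFP arrays. Of 13 myeloid markers, also all under 8 on average, 1 rose and none fell (2 higher and 0 lower at an unadjusted p under 0.05). It was *Tyrobp*, a signalling adaptor that NK cells also use, which averaged 6.71 ± 0.25 in GFP-KLF2 and 5.23 ± 0.23 in evGFP cells (SD, n = 3 each, log2 fold change 1.48, adjusted p = 0.00235). *Cd68*, a lysosomal protein of macrophages, averaged 6.78 ± 0.14 in GFP-KLF2 and 6.35 ± 0.17 in evGFP cells with no overlap (log2 fold change 0.43), and passed with the replicate block (adjusted p = 0.0252) but not without it (0.049). The myeloid markers summed to 750 to 905 in GFP-KLF2 and 641 to 976 in evGFP arrays. The brightest of the 13, *Fcer1g*, weighs heavily in these sums. It averaged 7.78 ± 0.57 in GFP-KLF2 and 8.19 ± 0.90 in evGFP cells, with overlapping groups (log2 fold change -0.41, limma adjusted p = 0.392). The 3 NK cell markers summed to 958 to 1667 in GFP-KLF2 and 1086 to 1559 in evGFP arrays, nearly all of it from *Eomes*, a transcription factor that CTL also express. *Ncr1*, which defines NK cells, averaged 4.34 in GFP-KLF2 and 4.22 in evGFP cells, and *Klra8* 3.33 in GFP-KLF2 and 3.38 in evGFP cells, close to or under the lower quartile of the arrays. The part of such cells in the value of *Syk* was not tested.

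The Src kinase *Fyn* had 10.75, 10.81 and 10.64 in GFP-KLF2 cells, against 10.58, 10.47 and 10.45 in evGFP cells. The groups did not overlap, but the log2 fold change of 0.23 did not pass (adjusted p = 0.119), except after cyclic loess. The second probe set of *Fyn*, at a mean of 10.30, was higher by 0.45 with no overlap (adjusted p = 0.0662, and 0.012 with the replicate block). *Csk*, which holds Src kinases inactive by phosphorylating their tail, averaged 11.03 ± 0.11 in GFP-KLF2 and 11.33 ± 0.09 in evGFP cells, again with no overlap and without passing (log2 fold change -0.30, adjusted p = 0.077). It did pass with probe sets of mean log2 intensity under 6 left out, with an intensity trend and robust prior, and with array weights.

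**Figure D2:**
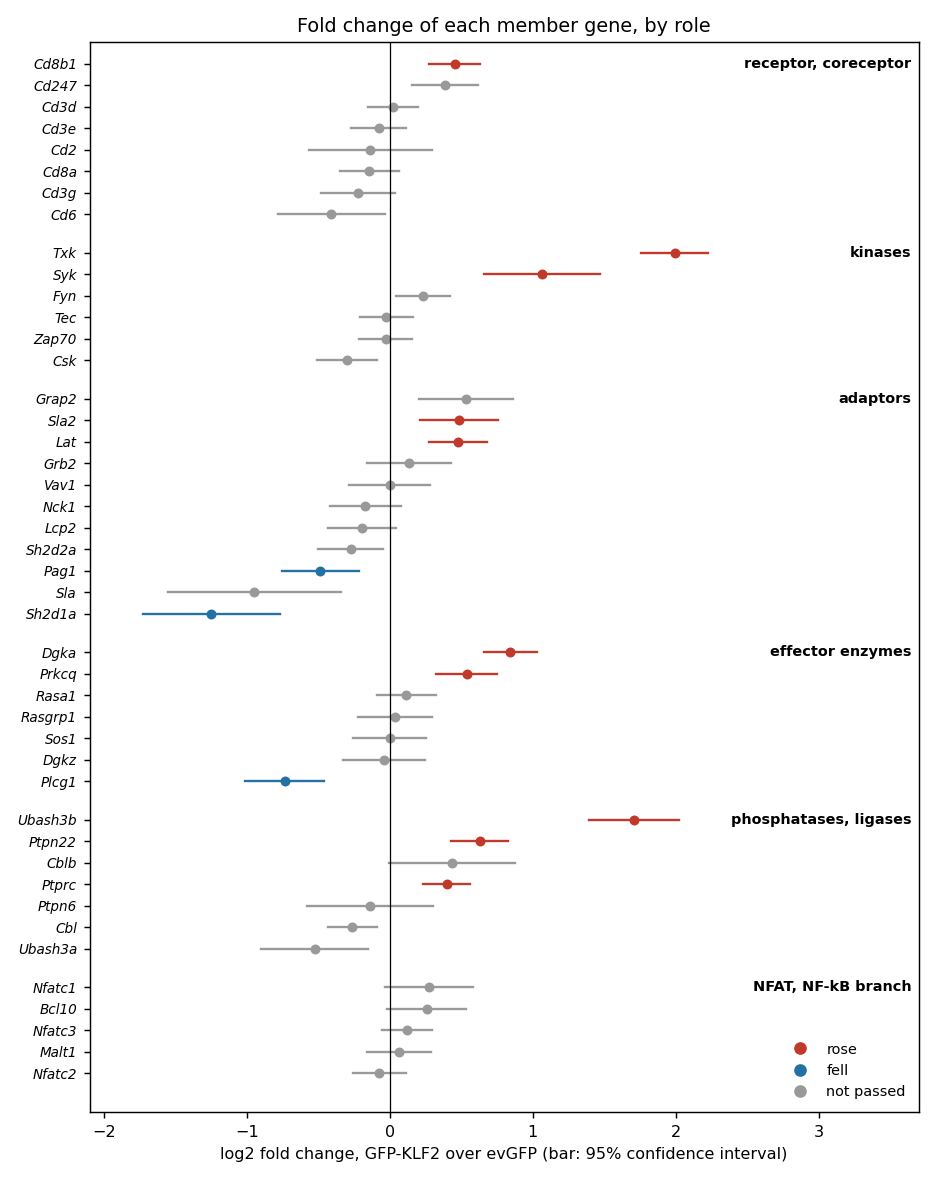
Log2 fold change of GFP-KLF2 over evGFP cells (horizontal axis) for the 44 measured members, grouped by role, as points with 95% confidence intervals from limma (red rose, blue fell, grey did not pass). The phosphatases and ligases have the highest median of the groups, at 0.40, and no member of the NFAT and NF-kB group passed.

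Of 11 adaptors, 2 rose and 2 fell (3 higher and 4 lower at an unadjusted p under 0.05). Among bright genes 11.1% rose and 16.3% fell. *Lat*, the membrane scaffold on which the signalling complex is built, had 13.02, 12.89 and 12.83 in GFP-KLF2 cells, against 12.45, 12.52 and 12.34 in evGFP cells. The groups were apart, with a log2 fold change of 0.48 (SE 0.09, adjusted p = 0.0148). *Sla2*, which encodes SLAP-2, an adaptor that recruits Cbl to lower receptor levels, had 10.49, 10.65 and 10.86 in GFP-KLF2 cells, against 10.03, 10.29 and 10.22 in evGFP cells. Its log2 fold change was 0.49 (SE 0.12, adjusted p = 0.0376), and its second probe set rose by 0.64 (adjusted p = 0.0273). Their log2 fold changes stayed at 0.43 to 0.52 for *Lat* and 0.39 to 0.57 for *Sla2* with any 1 array left out, but *Lat* did not pass without GFP-KLF2 replicate 1 or 2 or evGFP replicate 1 (adjusted p up to 0.0556), nor *Sla2* without GFP-KLF2 replicate 2 or 3 or any 1 of the evGFP replicates (up to 0.114).

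*Sh2d1a* fell furthest among the members. It encodes SAP, the small adaptor that couples SLAM family receptors to Fyn. Its log2 intensity was 8.63, 8.27 and 8.37 in GFP-KLF2 cells, against 10.16, 9.45 and 9.41 in evGFP cells. The highest GFP-KLF2 array stayed below the lowest evGFP array, with a log2 fold change of -1.25 (SE 0.21, adjusted p = 0.0104), or 2.37-fold lower. Another SH2 domain adaptor of T cells, *Sh2d2a*, which binds Lck, averaged 10.39 ± 0.16 in GFP-KLF2 and 10.66 ± 0.07 in evGFP cells (log2 fold change -0.27, adjusted p = 0.128).

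*Pag1*, the membrane adaptor that brings Csk to lipid rafts, had 10.11, 9.92 and 9.98 in GFP-KLF2 cells, against 10.27, 10.68 and 10.51 in evGFP cells. The groups did not overlap, though by a small margin, and the log2 fold change was -0.49 (SE 0.12, adjusted p = 0.0359). One of its dimmer probe sets, at a mean log2 intensity of 6.84, also fell by 0.49 (adjusted p = 0.00618). The other 2, at means of 7.46 and 5.05, changed by 0.00 and -0.01. The brightest probe set did not pass after cyclic loess (adjusted p = 0.0848) or without GFP-KLF2 replicate 1, 2 or 3 or evGFP replicate 2 or 3 (up to 0.113).

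*Sla*, the sister of *Sla2* that encodes SLAP and acts on the zeta chain in thymocytes, ran lower without passing. It had 10.43, 9.34 and 9.91 in GFP-KLF2 cells, against 11.08, 10.82 and 10.62 in evGFP cells, where the GFP-KLF2 arrays spread over more than 1 log2 unit. The log2 fold change was -0.95 (SE 0.26, adjusted p = 0.0571, and 0.0139 with the replicate block), and without GFP-KLF2 replicate 1 it passed (adjusted p = 0.0255). *Sla* also passed with probe sets of mean log2 intensity under 6 left out and with the mean of all probe sets. All 4 of its probe sets were lower, with log2 fold changes of -0.998 to -0.76, and the dimmest of them passed (adjusted p = 0.0377).

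The core linkers of the LAT complex did not pass. *Grap2*, which encodes GADS, the link between LAT and SLP-76, had 9.07, 9.62 and 9.20 in GFP-KLF2 cells, against 8.75, 8.84 and 8.70 in evGFP cells. No arrays overlapped, yet the log2 fold change of 0.53 missed the threshold (SE 0.14, adjusted p = 0.052), which it passed with the replicate block (adjusted p = 0.0194). *Grap2* also passed after cyclic loess, with probe sets of mean log2 intensity under 6 left out, with an intensity trend and robust prior, and with the mean of all probe sets. *Lcp2*, which encodes SLP-76, changed by -0.19 (adjusted p = 0.307), although a dimmer probe set of it fell by 0.36 (adjusted p = 0.0331). *Grb2*, which binds Sos, and the actin-linked adaptors *Nck1* and *Vav1* changed by 0.13, -0.17 and 0.00.

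The effector enzymes that LAT and diacylglycerol engage included 2 that rose and 1 that fell among 7. *Dgka*, diacylglycerol kinase alpha, which removes diacylglycerol and so damps Ras, had 11.92, 12.03 and 12.01 in GFP-KLF2 cells, against 11.21, 11.17 and 11.05 in evGFP cells. Within each group the arrays lay close together, and the log2 fold change was 0.84 (SE 0.08, adjusted p = 0.0016), or 1.79-fold. The zeta isoform *Dgkz* averaged 12.10 ± 0.24 in GFP-KLF2 and 12.14 ± 0.01 in evGFP cells (log2 fold change -0.04, adjusted p = 0.888). *Prkcq*, which encodes PKC theta, the kinase that diacylglycerol recruits to the synapse, had 11.92, 12.07 and 11.83 in GFP-KLF2 cells, against 11.50, 11.39 and 11.32 in evGFP cells. It rose by 0.54 (SE 0.09, adjusted p = 0.0117), a call that was lost without evGFP replicate 2 (adjusted p = 0.0504).

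*Plcg1*, the phospholipase that splits membrane phosphoinositide into both messengers, fell. Its values were 9.38, 9.12 and 9.36 in GFP-KLF2 cells, against 9.96, 9.88 and 10.22 in evGFP cells. The log2 fold change was -0.73 (SE 0.12, adjusted p = 0.00947), or 1.66-fold lower, and it passed with each array left out. Its other 2 probe sets, at mean log2 intensities of 5.57 and 4.08, changed by 0.04 and 0.00, and the mean of all 3 probe sets did not pass (log2 fold change -0.23, adjusted p = 0.0551). The Ras exchange factors *Rasgrp1* and *Sos1* and the Ras GTPase activating protein *Rasa1* changed by 0.04, 0.00 and 0.12, and none of their probe sets passed.

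Phosphatases and ligases that restrain the receptor included 3 that rose and none that fell among 7 (3 higher and 2 lower at an unadjusted p under 0.05), although *Ptprc* among these also activates Src kinases. *Ubash3b*, which encodes STS-1, a phosphatase that acts on ZAP-70 and Syk, had 10.90, 10.90 and 11.00 in GFP-KLF2 cells, against 8.94, 9.27 and 9.47 in evGFP cells. The GFP-KLF2 arrays lay close around their mean of 10.93 (SD 0.06), and the log2 fold change was 1.71 (SE 0.13, adjusted p = 0.000896), or 3.27-fold. All 3 of its probe sets rose, by 1.52 to 1.71. Its relative *Ubash3a* (STS-2) had 9.04, 9.12 and 9.67 in GFP-KLF2 cells, against 9.82, 9.73 and 9.86 in evGFP cells. It ran lower in each GFP-KLF2 array and did not pass (log2 fold change -0.53, adjusted p = 0.0815), but did with the replicate block (adjusted p = 0.0332) and without GFP-KLF2 replicate 3 (adjusted p = 0.00714). *Ubash3a* also passed with array weights.

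*Ptpn22*, a phosphatase that dephosphorylates the activation loop of Lck and works with Csk, gave 12.08, 11.88 and 11.85 in GFP-KLF2 cells, against 11.31, 11.28 and 11.34 in evGFP cells. The groups were well apart, with a log2 fold change of 0.63 (SE 0.09, adjusted p = 0.00528). *Ptprc*, which encodes CD45, had 14.09, 14.06 and 14.05 in GFP-KLF2 cells, against 13.65, 13.73 and 13.64 in evGFP cells. Its log2 fold change was 0.40 (SE 0.07, adjusted p = 0.0134), and it did not pass without GFP-KLF2 replicate 1 (adjusted p = 0.0536) or evGFP replicate 1 (0.0495). This probe set lies close to the arrays' highest signals of 14.97 to 15.04, and the dimmer probe set of *Ptprc*, at a mean of 7.99, rose by 0.97 (adjusted p = 0.00192).

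The Cbl ligases, which tag receptor proteins for removal, differed in direction without passing. *Cblb* averaged 10.11 ± 0.34 in GFP-KLF2 and 9.67 ± 0.25 in evGFP cells (log2 fold change 0.43, adjusted p = 0.208, and 0.0237 with the replicate block), and its second probe set rose by 0.43 (adjusted p = 0.034). *Cbl* averaged 9.51 ± 0.07 in GFP-KLF2 and 9.77 ± 0.01 in evGFP cells (log2 fold change -0.26, adjusted p = 0.0601). It did pass with a pseudocount and with probe sets of mean log2 intensity under 6 left out. *Ptpn6*, which encodes the phosphatase SHP-1, changed by -0.14 (adjusted p = 0.732).

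Without the replicate block, none of the 5 NFAT and NF-kB genes passed with its brightest probe set or any other. Of the 5 brightest probe sets, 0 had an unadjusted p under 0.05. *Nfatc1*, *Nfatc2* and *Nfatc3*, which encode the calcium-regulated factors NFAT2, NFAT1 and NFAT4, changed by 0.28, -0.07 and 0.12. *Malt1* and *Bcl10*, partners in the complex that links PKC theta to NF-kB, changed by 0.07 and 0.26. The lowest adjusted p of the 5 brightest probe sets was 0.231, for *Bcl10*. All 4 probe sets of *Bcl10* were higher, by 0.20 to 0.34, and the dimmest passed with the replicate block (adjusted p = 0.0303).

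**Figure D3:**
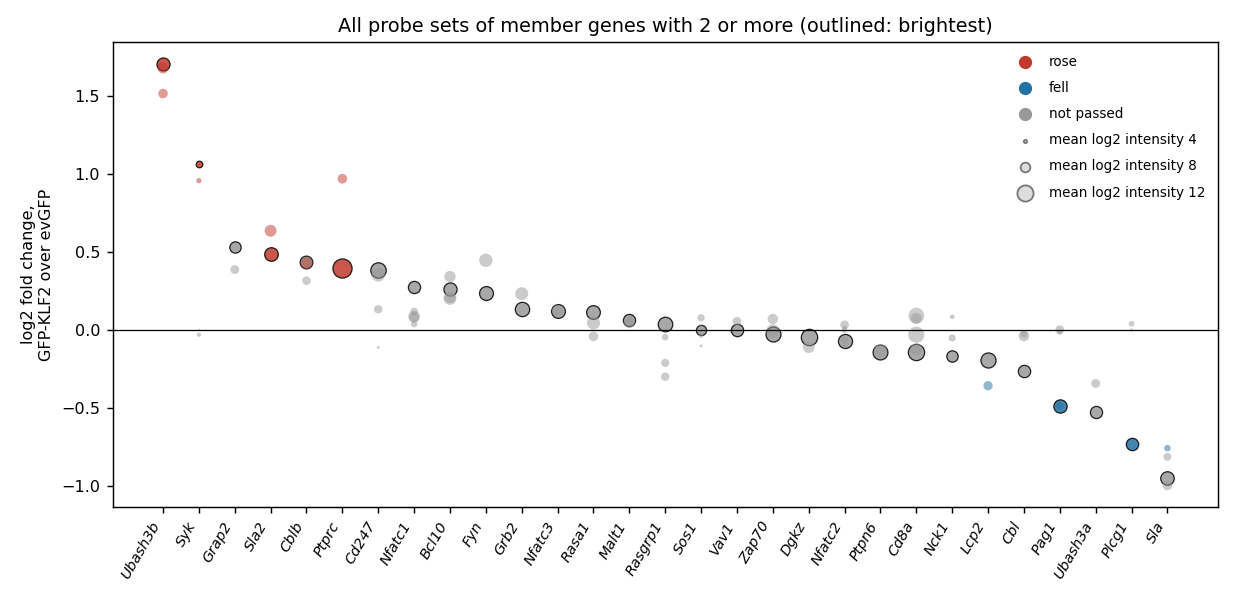
Log2 fold change of GFP-KLF2 over evGFP cells (vertical axis) for each probe set of the members that have 2 or more, with the brightest outlined, the area of a mark growing with mean log2 intensity, and red, blue and grey for rose, fell and did not pass. The 3 probe sets of *Ubash3b* and the 4 of *Sla* lie together, whereas the 2 dimmest probe sets of *Syk* and of *Plcg1* lie near 0.

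KLF2 is known to bind CACCC boxes, so the promoters of members were searched for this core, CACCC or its complement GGGTG, in RefSeq promoter windows from 250 bases before to 50 bases after each transcript start (build GRCm38.p6). Windows were matched for 35 of the 44 members. CACCC was found on either strand for 28 of 35 members (80.0%), beside 59.8% of all 27025 genes of that table, for 8 of 9 matched members that rose and for 19 of 25 that did not pass. The longer form CCNCNCCC, which can overlap the first, was found for 26 of 35 (74.3%), beside 51.9% of all genes. It was found for 6 of 9 matched members that rose and for 19 of 25 that did not pass. A gene can have several windows. Counted per window, CACCC was in 70.6% for all members, beside 57.5% for all genes. By window it was in 64.7% for members that rose and 72.7% for those that did not pass. These matches are a description of letters in a window and no test of binding was made.

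The 250 bases before the most upstream start are shown for *Txk* and *Ubash3b*, the members with the highest fold changes, and for *Plcg1*, which fell, with CACCC or GGGTG in capitals. *Txk* (chr5:72752778-72753027, minus strand) holds 1 match, which begins 173 bases before the start. *Ubash3b* (chr9:41158063-41158312, minus strand) holds 0 in this window, and *Plcg1* (chr2:160731060-160731309, plus strand) holds 3, which begin 174, 52 and 18 bases before it. Matches thus stood before a gene that rose and before one that fell.
Txk: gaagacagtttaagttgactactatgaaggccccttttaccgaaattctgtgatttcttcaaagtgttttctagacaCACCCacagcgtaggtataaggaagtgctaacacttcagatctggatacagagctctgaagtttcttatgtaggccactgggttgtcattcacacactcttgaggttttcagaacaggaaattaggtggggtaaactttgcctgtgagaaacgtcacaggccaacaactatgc
Ubash3b: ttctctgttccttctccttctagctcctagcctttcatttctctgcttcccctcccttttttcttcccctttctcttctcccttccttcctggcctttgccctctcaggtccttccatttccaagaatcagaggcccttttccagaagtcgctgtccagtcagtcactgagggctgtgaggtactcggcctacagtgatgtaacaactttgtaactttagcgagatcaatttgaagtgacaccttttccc
Plcg1: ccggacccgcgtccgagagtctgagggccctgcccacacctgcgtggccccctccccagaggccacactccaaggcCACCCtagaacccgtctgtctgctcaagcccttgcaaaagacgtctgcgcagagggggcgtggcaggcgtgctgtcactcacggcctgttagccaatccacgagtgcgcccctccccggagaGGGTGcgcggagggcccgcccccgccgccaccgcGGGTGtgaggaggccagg

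Several members are relatives or, like *Sh2d1a* and *Sh2d2a*, adaptors that share little beyond an SH2 domain, and 10 such pairs were compared by the difference of their log2 values within each array, so that a shift shared by both genes drops out. An exact permutation test over the arrays, 2-sided, cannot give less than 0.1 with 3 against 3. It gave 0.1 for 9 pairs, whose groups did not overlap, and 0.2 for *Nfatc1* and *Nfatc2* (0.111 and 0.2 after Benjamini-Hochberg adjustment over the 10). No pair could therefore pass, and the values are given as a description. The pairs were chosen with earlier results of these data known. How often other pairs of genes do not overlap was not computed.

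Differences are given as the log2 change of the first gene minus that of the second. *Txk* minus *Tec* came to 2.02 (SE 0.07), with 1.95 to 2.09 over the replicate pairs. *Ubash3a* minus *Ubash3b* came to -2.23 (SE 0.22), the first having run lower and the second having risen. For *Sla* minus *Sla2* it was -1.43 (SE 0.42), and for *Zap70* minus *Syk* -1.09 (SE 0.27). The remaining pairs lay closer. The difference was -0.97 for *Sh2d1a* minus *Sh2d2a* (SE 0.25), 0.89 for *Dgka* minus *Dgkz* (SE 0.17), 0.70 for *Cblb* minus *Cbl* (SE 0.21) and -0.60 for *Cd8a* minus *Cd8b1* (SE 0.11). The NFAT genes were closest, at 0.35 for *Nfatc1* minus *Nfatc2* (SE 0.19) and -0.20 for *Nfatc2* minus *Nfatc3* (SE 0.08).

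**Figure D4:**
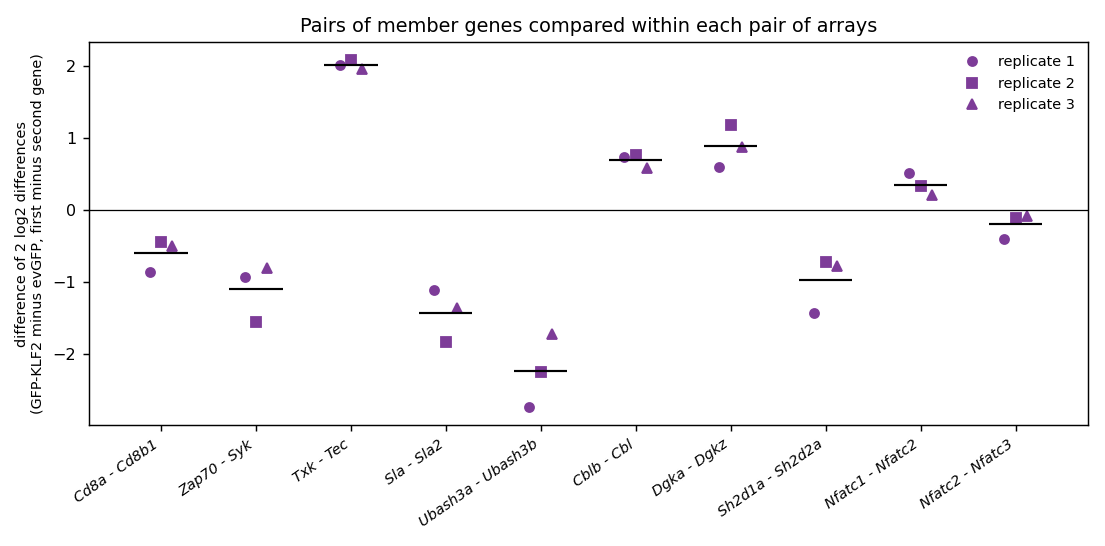
Difference between the 2 genes of a pair in their log2 change of GFP-KLF2 minus evGFP (vertical axis), one mark per replicate number and a line at the mean, for the 10 pairs compared. *Txk* against *Tec* is the tightest of the wide differences, with 1.95 to 2.09, and in each pair of genes the 3 marks lie on the same side of 0.

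Further genes of the pathway, from 6 lists, were measured for 103 of 119 listed genes, of which 24 rose, 6 fell and 73 did not pass, with a median log2 fold change of 0.07. Beside these counts, 6.22% of all genes rose and 8.35% fell, or 11.1% and 16.3% of the bright ones. With the replicate block 28 rose (8.58% of all genes) and 15 fell (12.1% of all genes), where 1021 and 1499 of the 6956 bright genes did. Without the block and with all arrays 24 rose and 6 fell, beside 13 that rose without GFP-KLF2 replicate 1 and 12 without evGFP replicate 2. Without GFP-KLF2 replicate 2 or any 1 of the evGFP replicates 3 fell. A fit with 1 array left out also has less power, which cannot be told apart from dependence on that array. Of the 24 that rose, 11 passed with each array left out, and of the 6 that fell 2 did (*Trat1* and *Dgkd*).

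The calcium and NFAT list had 7 of 16 genes that rose and none that fell (8 higher and 2 lower at an unadjusted p under 0.05), with a median of 0.32. *Itpr3*, an inositol trisphosphate receptor that releases calcium from the endoplasmic reticulum, had 10.51, 10.80 and 10.18 in GFP-KLF2 cells, against 8.62, 8.99 and 9.32 in evGFP cells. The groups were apart, with a log2 fold change of 1.52 (SE 0.21, adjusted p = 0.00528). *Plcg2*, the phospholipase C gamma that B cells use, had 10.64, 10.31 and 11.14 in GFP-KLF2 cells, against 8.75, 9.17 and 9.83 in evGFP cells. It rose by 1.45 (SE 0.30, adjusted p = 0.0216) while its relative *Plcg1* fell, but did not pass without GFP-KLF2 replicate 1 or 3 or evGFP replicate 1 or 2 (up to 0.079). The second inositol trisphosphate receptor *Itpr2* rose by 0.71 (adjusted p = 0.00568). The others that rose were the store-operated channel *Orai1*, its sensors *Stim1* and *Stim2* and the calcineurin subunit *Ppp3ca*, by 0.39 to 0.69, and of these *Orai1* alone passed with each array left out.

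The list of other phosphatases and brakes had 5 of 18 genes that rose, 1 that fell and a median of -0.06. *Rasa3*, a GTPase activating protein for Ras and Rap1, had 11.91, 11.88 and 11.98 in GFP-KLF2 cells, against 9.89, 10.01 and 9.90 in evGFP cells. The arrays of each group lay close together (SD 0.05 in GFP-KLF2 and 0.07 in evGFP cells), with a log2 fold change of 1.99 (SE 0.08, adjusted p = 4.24e-05). *Ptpn12*, which encodes the phosphatase PTP-PEST, rose by 1.79 (adjusted p = 0.00283) and did so in all 4 of its probe sets. *Spred1*, an inhibitor of Ras and Raf signalling, rose by 1.24 (adjusted p = 0.0031). These 3 passed with each array left out.

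The list of other membrane proteins and adaptors had 2 of 18 genes that rose, 1 that fell and a median of -0.04. *Trat1*, which encodes TRIM, an adaptor that associates with the TCR, had 5.07, 4.88 and 5.51 in GFP-KLF2 cells, against 7.17, 7.53 and 7.44 in evGFP cells. This was the lowest log2 fold change among the members and these 6 lists, at -2.23 (SE 0.17, adjusted p = 0.000834), and its second probe set also fell, by 1.02. *Lax1*, a LAT-like adaptor that inhibits lymphocyte signalling, rose by 1.01 (adjusted p = 0.0249), a call lost without GFP-KLF2 replicate 1 or 2 or evGFP replicate 1 or 2 (up to 0.0856). *Nck2*, the relative of *Nck1*, rose by 0.84 (adjusted p = 0.0195), and its call was lost without GFP-KLF2 replicate 2 or 3 or evGFP replicate 2 (up to 0.0616). With the replicate block 5 genes of this list fell, with *Cd5* among these. *Cd5*, a receptor that damps TCR signalling, averaged 7.59 ± 0.62 in GFP-KLF2 and 8.70 ± 0.27 in evGFP cells. The groups did not overlap, and its log2 fold change of -1.12 (SE 0.29), or 2.17-fold lower, missed the threshold (adjusted p = 0.0493) that it passed with the block (0.00916).

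In the Ras and MAPK list 2 of 14 rose and 2 fell (median -0.15): the Ras exchange factors *Sos2* and *Rasgrp2* rose by 0.77 and 0.70, the scaffold *Ksr1* fell by 0.54 and the kinase *Araf* fell by 0.30. Of these, none passed with each array left out, and *Araf* also missed the threshold with the replicate block (adjusted p = 0.0516). *Rasgrp2* rose by 0.70 in another probe set too, while those at mean log2 intensities of 11.02 and 8.39 changed by 0.42 and 0.54 without passing. The other probe sets of *Ksr1*, at means of 7.94 and 6.00, changed by -0.10 and -0.11 without passing. In the NF-kB list 2 of 14 rose and 1 fell (median 0.13): *Prkch*, which encodes PKC eta, rose by 0.72 (and by 0.71 in its second probe set), the signalling adaptor *Traf2* rose by 0.39 and the kinase *Map3k7* (TAK1) fell by 0.56. *Prkch* alone of these passed with each array left out. In the PI3K and cytoskeleton list 6 of 23 rose and 1 fell (median 0.12). *Pik3r1*, the regulatory subunit of PI3K, rose by 0.94 (adjusted p = 0.00209) with all 4 of its probe sets, *Vav3* rose by 0.89 and *Vav2* fell by 0.66, beside a change of 0.00 for their relative *Vav1*, and of these 3 *Pik3r1* alone passed with each array left out. The other probe sets of *Vav3* changed by 0.85 and 0.33 and those of *Vav2* by -0.13 and -0.17, without passing.

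**Figure D5:**
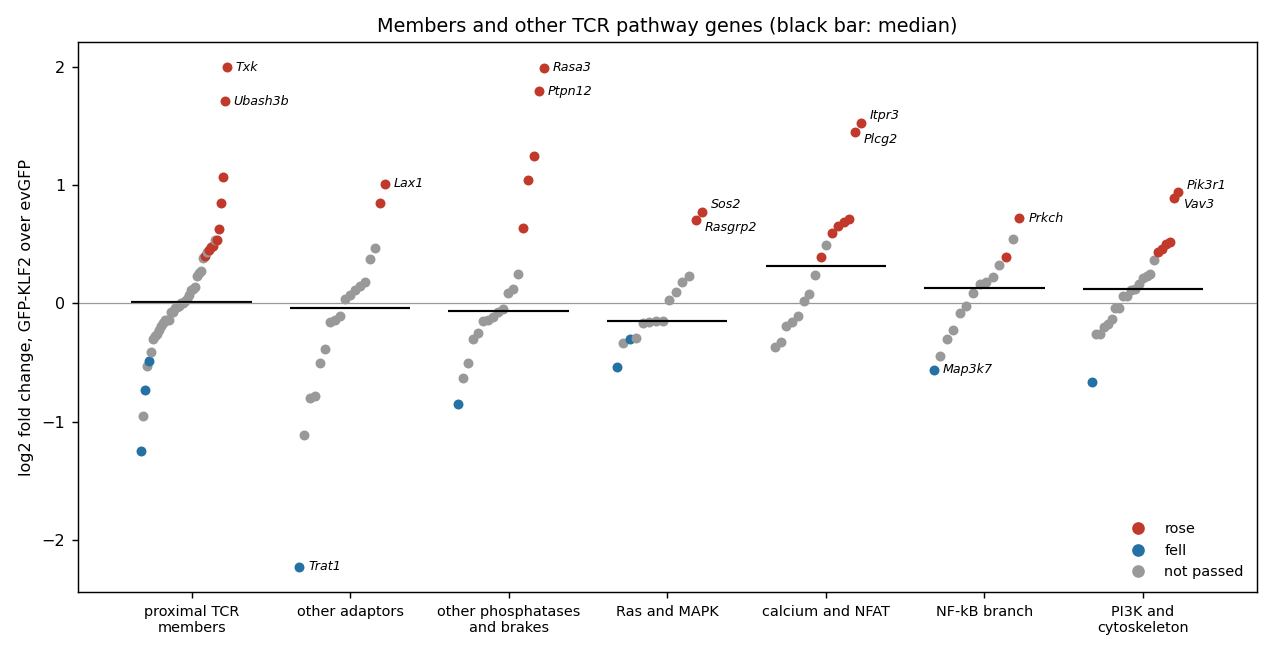
Log2 fold change of GFP-KLF2 over evGFP cells (vertical axis) for the members and for 6 lists of other pathway genes, one point per gene in rising order and a black bar at the median, with up to 2 genes that passed named per list. The calcium and NFAT list has the highest median, at 0.32, and the members lie around 0.01.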

How the data were processed

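RNA of sorted GFP-KLF2 and evGFP cells was measured on 3 arrays per group. The intensity values were deposited by the authors after Robust Multiarray Average (RMA), that is background correction, quantile normalization and summary of each probe set, on a linear scale; the authors tested them with limma, and the versions they used are not given in the sources used here. RMA compresses the changes of dim probe sets.

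For the comparisons, log2 was taken of each deposited intensity, the 64 array controls among 45101 probe sets were left out, and GFP-KLF2 was compared with evGFP by limma 3.58.1 in R 4.3.3, with 1 constant per group. Of the 45037 probe sets tested, 34945 have 1 gene in the platform annotation, 932 several and 9160 none. Each gene was represented by the probe set with the highest mean. The methods print the threshold as 0.046%, taken here as an adjusted p of 0.046, and 0.00046 was an alternative. The members, the lists and the tests were chosen with earlier results of these data known. All 45 members are named where measured, with values per array for those that passed, and up to 3 genes of each other list that passed, taken by size of change. Values per array of other genes, and further genes named from these lists, were chosen after their values were seen.

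Replicate numbers pair the arrays: same-numbered arrays departed from their group means alike (r = 0.33, 0.44 and 0.47), and others did not (-0.38 to 0.06), and a fit with that block was an alternative. The others were thresholds, normalization, a pseudocount, a filter on dim probe sets, the prior, array weights, the choice of probe set and leaving out each array. The fit was tested on simulated data.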

Additional observations from a re-analysis of the deposited data

How the results depend on the processing

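No member that passed, as reported or under an alternative, changed direction in any of the alternatives. At an adjusted p of 0.00046 in limma, 1 member rose (Txk) and 0 fell, beside 10 and 3 at 0.046 and 13 higher and 9 lower at an unadjusted p under 0.05, and with a change of at least 2-fold 3 rose and 1 fell. The number that fell was 6 with probe sets of mean log2 intensity under 6 left out, 5 with array weights, 6 with the replicate block and 5 with the probe set of smallest p, and 2 after cyclic loess, where 10 to 13 rose. Under the other alternatives 7 to 12 members rose and 3 or 4 fell. Among these, leaving out probe sets with names ending in _s_at, _a_at or _x_at removed the only probe set of Txk, Cd8b1 and Prkcq. These members were therefore not measured there and could not be counted as risen. With 1 array left out, 7 to 10 members rose and 2 to 3 fell. Of the 10 that rose, 6 passed with each array left out (Txk, Ubash3b, Syk, Dgka, Ptpn22 and Cd8b1), and of the 3 that fell 2 did (Sh2d1a and Plcg1). Array weights ended the call of Sla2 (adjusted p = 0.0463), cyclic loess that of Pag1 and the mean of all probe sets that of Plcg1, and the cause was not tested. The replicate block, which ended no member's call and added 6, gave 15 other pathway genes that fell beside 6 without it, and 28 that rose beside 24. It changed no other call among the members. With 1 array left out, 12 to 22 other pathway genes rose and 3 to 5 fell. Signal near the lower quartile limits what can be seen for dim probe sets such as those of Syk, and saturation may limit Ptprc.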
